A study of Homo sapiens with 12 samples.

Results

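The genes described here are 10 that write, erase or read DNA methylation: the methyltransferases DNMT1, DNMT3A and DNMT3B, the hydroxymethylating dioxygenases TET1, TET2 and TET3, and the readers or partners UHRF1, MBD2, MBD4 and TRIM28. They were chosen by symbol, and all 10 were found, each in 1 row, among the 58395 gene rows of the count table. RNA was sequenced from 12 libraries of 3 human leukemia lines, 4 per line. Edit-3, labelled K/VP.5/edit-3, is a clone picked from K/VP.5 cells given purified Cas9 with gRNA and an oligonucleotide template for repair, so that the 5′ splice site between exon 19 and intron 19 of TOP2A, the gene of topoisomerase IIα, was altered. The K/VP.5 line is clonal too and descends from K562; it resists etoposide, a topoisomerase II poison. K562 is the parental line, an established erythroleukemic line of chronic myeloid leukemia. Both sublines are single clones, and what drug selection or editing did cannot be told apart from what else sets a clone apart. Per the labels, the lines were kept in medium with fetal serum, and etoposide was given at 0.5 µM in every other week; that statement names all 3 lines and does not say whether K562 was treated otherwise. Whether the 4 libraries of a line stem from separate cultures is not stated in the labels, so each p-value reflects the spread among these libraries alone, and that spread may be technical.

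DNA methylation in mammals is a methyl group on the cytosine of a CpG, and dense methylation of a CpG-rich promoter goes with a silent gene. DNMT3A and DNMT3B place new methyl groups, while DNMT1, brought to replicating DNA by UHRF1, copies the pattern to the new strand. TET enzymes oxidise methylcytosine and so start its removal, and some MBD proteins, MBD2 and MBD4 among them, bind methylated CpGs. In blood, DNMT3A and TET2 are known as genes in which mutations lead to clonal growth of stem cells and to leukemia.

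The libraries held 25.3 M to 37.1 M counted reads each, with 95.2% to 96.2% in protein-coding genes. All 10 genes passed the filter on low counts, and so did 18286 genes in all. Of 10 erythroid markers, all had reads in every line, with summed levels of 2406 to 3767 CPM in edit-3, 2266 to 3027 CPM in K/VP.5 and 2609 to 4157 CPM in K562. Of 6 T and B cell markers, MS4A1 was at 0 in every line, and the list summed to 21.6 to 53.2 CPM in edit-3, 10.9 to 18.8 CPM in K/VP.5 and 40.1 to 81.9 CPM in K562. Of 6 stromal and epithelial markers, KRT5 was at 0 in every line, but the summed level of the list was 2039 to 3285 CPM in edit-3, 367 to 447 CPM in K/VP.5 and 170 to 186 CPM in K562, most of it from COL1A2 and EPCAM. The part of such genes in the results below was not tested.

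Levels of different genes were set side by side as RPKM, read counts scaled for exon length in kilobases and for library size. TRIM28, the corepressor that KRAB zinc finger proteins recruit, stood far above the others, at 208 ± 20.6 RPKM in edit-3, 223 ± 15.5 RPKM in K/VP.5 and 224 ± 25.7 RPKM in K562 (SD, n = 4). UHRF1, DNMT3B and DNMT1 came next, with line means between 44.6 and 50.4 RPKM. Their libraries overlapped in edit-3 and K562, while in K/VP.5 DNMT1 (48.6 to 53.9 RPKM) stood above UHRF1 (39.6 to 47.1 RPKM) and DNMT3B (43.7 to 47.5 RPKM). Then followed TET1 (13.4 to 18.9 RPKM), MBD4 (12.1 to 13.7 RPKM), TET3 (10.4 to 11.4 RPKM), DNMT3A (6.06 to 10.7 RPKM), MBD2 (5.42 to 6.11 RPKM) and TET2 (2.38 to 2.72 RPKM), each as the range of the 3 line means. Of neighbours in this order, TET1 and MBD4 overlapped in K562, MBD4 and TET3 overlapped in edit-3 and K562, TET3 and DNMT3A in K/VP.5, and DNMT3A and MBD2 in K562. This order rests on the length given to each gene: with the longest coding transcript in place of all exons, DNMT1 reached 88.5 RPKM in K562 against 60.2 RPKM for UHRF1 and 52.5 RPKM for DNMT3B.

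The largest change within the set was in DNMT3A, the less abundant of the de novo methyltransferase genes, which was higher in K/VP.5 than in K562 and lower in edit-3 than in K/VP.5. In CPM, read counts scaled to library size, DNMT3A had 121, 132, 122 and 138 in K/VP.5 replicates 1 to 4, against 65.7, 73.9, 69.5 and 82.5 in K562. Every K/VP.5 library lay above every K562 library, and DNMT3A averaged 128 ± 8.42 CPM in the K/VP.5 libraries and 72.9 ± 7.22 CPM in the K562 libraries (SD, n = 4 each). The log2 fold change was 0.82 (SE 0.092, 1.76-fold, adjusted p = 5.6e-06 in edgeR's quasi-likelihood test). In edit-3, DNMT3A had 72.7, 73.1, 88.5 and 86.6 CPM, all below the K/VP.5 libraries and overlapping those of K562. The edit-3 versus K/VP.5 log2 fold change was -0.68 (SE 0.092, 0.626-fold, adjusted p = 7.0e-05), and its difference from K562, 0.14, did not pass (95% interval -0.06 to 0.34, adjusted p = 0.26). The 2 comparisons that involve K/VP.5 share its 4 libraries, so the rise and the fall are not independent of each other. In bulk RNA a smaller number of expressing cells and less RNA per cell cannot be told apart.

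**Figure D1:**
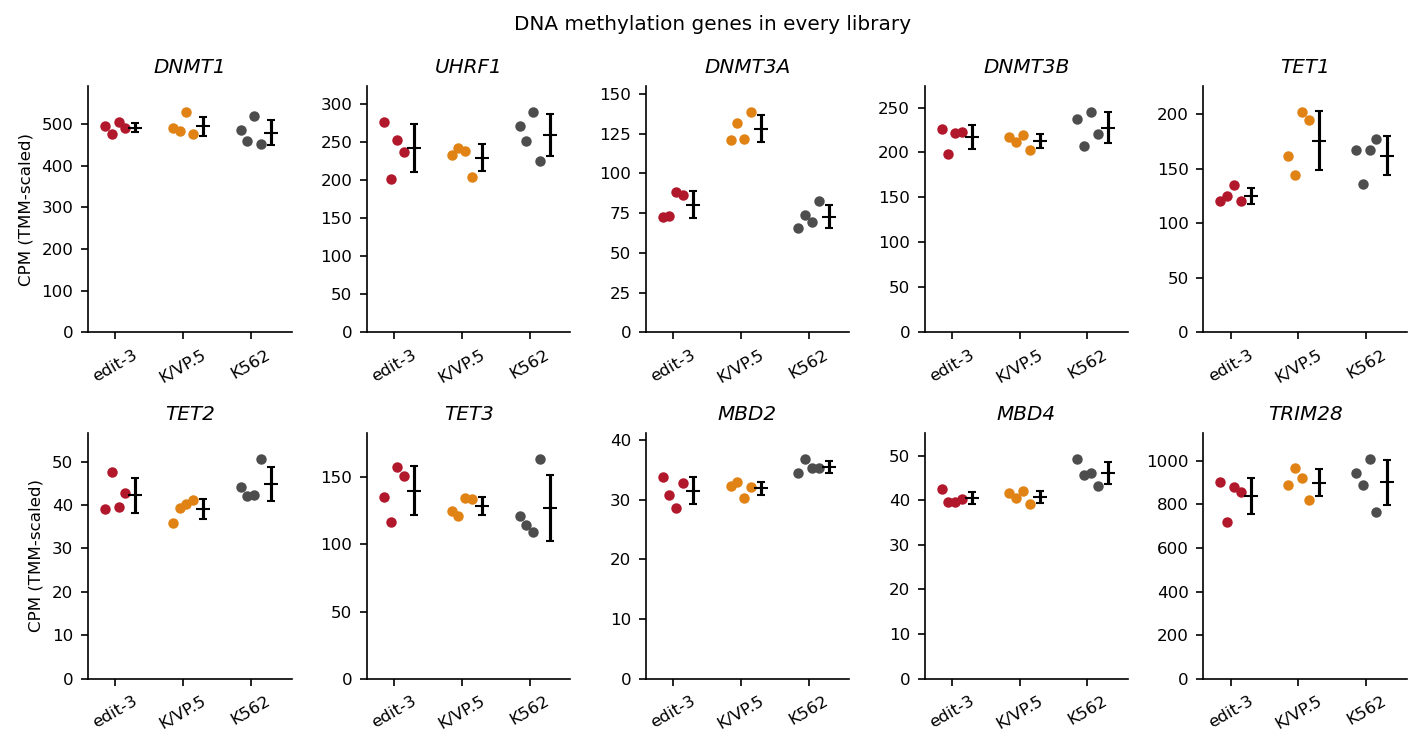
Level of each gene in every library, in CPM on a linear axis from 0; dots are replicates 1 to 4 from left to right and the bar beside them gives mean and SD of 4 libraries. The K/VP.5 dots of DNMT3A lie between 121 and 138 CPM, above all other dots in that panel, and the edit-3 dots of TET1 lie lowest.

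DNMT3A has several starts in RefSeq, of which the upstream group gives the long protein and the internal group, inside the gene, a shorter one that lacks the amino-terminal part. The counts sum over all of them, so which start supplied the added reads was not measured. The 250 bases before the outermost start of each group and before the outermost start of TET1 are shown because DNMT3A and TET1 were the genes whose changes passed under every alternative run, and CpGs are the sites on which their enzymes act; capitals mark each CpG (RefSeq, GRCh38.p14, 5′ to 3′ on the gene's strand).
DNMT3A upstream start, chr2:25342591-25342840, minus strand: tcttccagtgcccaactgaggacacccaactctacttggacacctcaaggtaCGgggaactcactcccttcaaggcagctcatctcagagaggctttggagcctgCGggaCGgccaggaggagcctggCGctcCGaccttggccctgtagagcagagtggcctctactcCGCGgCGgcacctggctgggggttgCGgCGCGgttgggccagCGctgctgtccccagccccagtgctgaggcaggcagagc
DNMT3A internal start, chr2:25252316-25252565, minus strand: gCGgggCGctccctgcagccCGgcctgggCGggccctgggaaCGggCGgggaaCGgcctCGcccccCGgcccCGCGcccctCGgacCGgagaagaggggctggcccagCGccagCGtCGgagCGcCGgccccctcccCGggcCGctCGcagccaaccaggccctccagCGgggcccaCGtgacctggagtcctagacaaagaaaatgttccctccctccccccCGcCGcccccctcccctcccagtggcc
TET1 start, chr10:68560087-68560336, plus strand: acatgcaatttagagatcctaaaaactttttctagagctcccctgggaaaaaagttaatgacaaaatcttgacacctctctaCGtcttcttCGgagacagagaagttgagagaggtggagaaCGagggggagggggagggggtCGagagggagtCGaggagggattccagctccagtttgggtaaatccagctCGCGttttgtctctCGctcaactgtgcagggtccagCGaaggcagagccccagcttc
The windows hold 12, 25 and 9 CpGs. At least as many stood in 48.5%, 21.6% and 54.1% of the 35116 RefSeq windows of the same length. The windows before the other upstream starts of DNMT3A hold 21 and 33 CpGs (30.2% and 8.15% of windows have as many), and those before the other internal starts 15 and 22, so the CpG counts of both groups overlap. Of the 10 genes, 9 had a window in the table. Methylation itself was not measured.

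DNMT3A lies on chromosome 2 from 25227855 to 25342590, on the minus strand (GENCODE 29, GRCh38). The 10 tested genes on either side of it showed a median of -0.09 on the log2 scale in K/VP.5 versus K562, and 1 of these 20 neighbours rose as much as DNMT3A. That gene, named after its value was seen, was DTNB, the dystrobrevin β gene, which is the next tested gene upstream of DNMT3A (25377198 to 25673647, also on the minus strand). DTNB had 0.880 ± 0.027 CPM in edit-3, 1.26 ± 0.31 CPM in K/VP.5 and 0.287 ± 0.064 CPM in K562. These levels are near the floor, with 7 to 9 reads in each K562 library. A stricter filter of 1 CPM in 4 libraries takes DTNB out of the test. Its log2 fold change was 2.15 in K/VP.5 versus K562 (SE 0.25, adjusted p = 6.8e-06) and -0.53 in edit-3 versus K/VP.5, which did not pass (adjusted p = 0.083), although it did without K/VP.5 replicate 3 (-0.67). In edit-3 versus K562, where DNMT3A did not pass, DTNB was higher by 1.61 (adjusted p = 0.00013). In edit-3 versus K/VP.5 the neighbours of DNMT3A had a median of 0.06, and 0 of 20 were as low as DNMT3A.

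**Figure D2:**
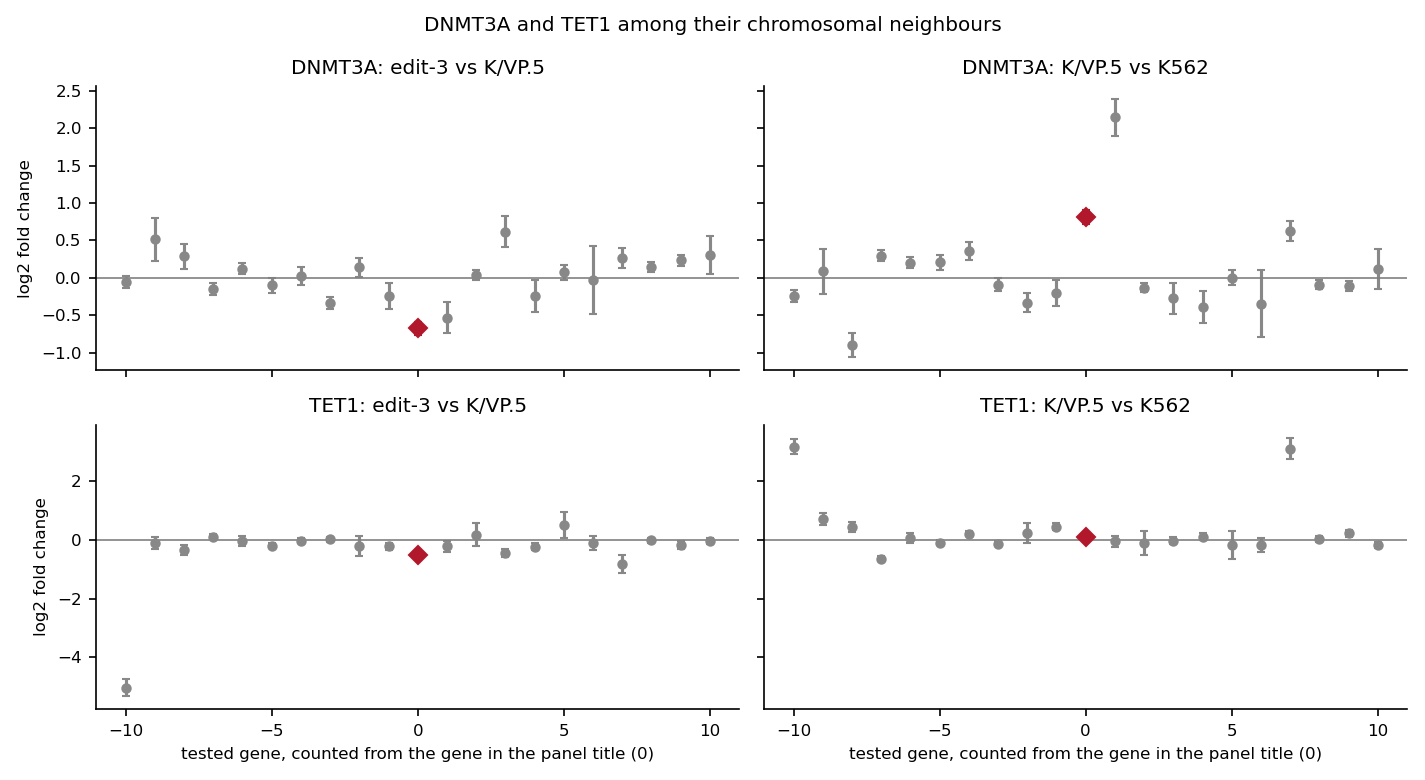
Log2 fold change with SE of DNMT3A and TET1 (diamonds) and of the 10 tested genes on either side (dots), in gene order along the chromosome. The upper panels show DNMT3A and the lower ones TET1, on vertical scales of their own. Next to DNMT3A, DTNB at position 1, a gene with few reads, stands at 2.15 in K/VP.5 versus K562, and the other neighbours of DNMT3A lie below it.

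DNMT3B, the other de novo enzyme, did not pass in any comparison. It had 226, 198, 222 and 223 CPM in the edit-3 libraries, 217, 211, 220 and 202 CPM in those of K/VP.5 and 238, 207, 245 and 221 CPM in those of K562, so that all lines overlapped. The 95% interval of its log2 difference was -0.25 to 0.05 in K/VP.5 versus K562 and -0.12 to 0.18 in edit-3 versus K/VP.5. The share of DNMT3A in the reads per kilobase of DNMT3A and DNMT3B was 12.4 ± 1.03% in edit-3, 18.9 ± 1.57% in K/VP.5 and 11.0 ± 1.52% in K562 (SD, n = 4), with no overlap between K/VP.5 and either other line. DNMT3L, a paralog without catalytic activity that stimulates DNMT3A and is normally confined to germ and embryonic cells, was named after its values were seen. It had 44 reads over the 4 edit-3 libraries, 126 over those of K/VP.5 and 17 over those of K562. Its log2 fold change of 2.64 in K/VP.5 versus K562 passed (adjusted p = 0.019), but not without K/VP.5 replicate 4 or without a filter on low counts (highest adjusted p 0.074).

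Neither gene of the maintenance pair passed in any comparison. DNMT1 had 496, 476, 503 and 489 CPM in the edit-3 libraries, 490.0, 483, 528 and 476 CPM in those of K/VP.5 and 485, 459, 519 and 452 CPM in those of K562. All 3 lines overlapped, and the 95% interval of the log2 difference was -0.09 to 0.18 in K/VP.5 versus K562, -0.14 to 0.12 in edit-3 versus K/VP.5 and -0.10 to 0.17 in edit-3 versus K562. UHRF1 had 277, 202, 253 and 238 CPM in the edit-3 libraries, 234, 242, 239 and 204 CPM in those of K/VP.5 and 271, 251, 289 and 225 CPM in those of K562. Its lines overlapped too, and its log2 fold changes of -0.18 in K/VP.5 versus K562 and 0.08 in edit-3 versus K/VP.5 did not pass (adjusted p = 0.20 and 0.63). Within same-numbered pairs of K/VP.5 and K562, UHRF1 was lower in K/VP.5 in 4 of 4 and DNMT1 higher in 4 of 4, and with the replicate block neither passed (log2 fold changes -0.17 and 0.05, SE 0.080 and 0.052, adjusted p = 0.11 and 0.52). UHRF1 and DNMT1 are both at their highest in S phase in dividing cells. Of 18 S phase genes, 6 rose and 2 fell in K/VP.5 versus K562, 2 rose and 2 fell in edit-3 versus K/VP.5, and 7 rose and 2 fell in edit-3 versus K562. In this order, 44.4%, 22.2% and 50% of the list were called, against 36.6%, 23.6% and 39.2% of all tested genes. GINS2, a subunit of the replicative helicase, rose by a log2 fold change of 0.73 in K/VP.5 (adjusted p = 3.1e-05), whereas RRM1, a ribonucleotide reductase subunit, fell by 0.70 on the log2 scale (adjusted p = 5.5e-07).

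Several of the 10 genes were lowest in the same libraries. In replicate 2 of edit-3, 5 genes had their lowest edit-3 value (DNMT1, DNMT3B, TET3, TRIM28 and UHRF1). In replicate 4 of K/VP.5 it was also 5 (DNMT1, DNMT3B, MBD4, TRIM28 and UHRF1), and in replicate 4 of K562 it was 4 (DNMT1, MBD4, TRIM28 and UHRF1). TET2 went the other way, with its highest value of each line in these libraries (47.7, 41.1 and 50.6 CPM). These libraries were picked for their counts, and the share of all tested genes lowest in them was not counted. TRIM28 had 901, 717, 881 and 856 CPM in the edit-3 libraries, 890.0, 968, 922 and 819 CPM in those of K/VP.5 and 946, 889, 1009 and 766 CPM in those of K562. The lines overlapped, and TRIM28 passed in no comparison (adjusted p between 0.41 and 0.98).

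Among the erasers, TET1 was the one that changed, and it was lowest in edit-3. TET1, the TET enzyme with a CpG-binding CXXC domain that is best known from embryonic stem cells, had 119.8, 124, 135 and 119.9 CPM in the edit-3 libraries, 162, 144, 201 and 195 CPM in those of K/VP.5 and 167, 136, 167 and 177 CPM in those of K562. All edit-3 libraries lay below all others, although the highest, 135 CPM in replicate 3, was close to the lowest of K562, 136 CPM in replicate 2. The log2 fold change was -0.49 in edit-3 versus K/VP.5 (SE 0.11, 0.711-fold, adjusted p = 0.0038) and -0.38 in edit-3 versus K562 (SE 0.11, 0.770-fold, adjusted p = 0.012). Between K/VP.5 and K562 the libraries overlapped (log2 fold change 0.12, 95% interval -0.12 to 0.35, adjusted p = 0.44). TET1 lies on chromosome 10 from 68560656 to 68694482, and the median log2 fold change of its 20 tested neighbours was -0.13 in edit-3 versus K/VP.5, with 2 of them as low as TET1. In edit-3 versus K562 the median of these neighbours was 0.03, with 3 of them as low as TET1.

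TET2 and TET3 did not pass in any comparison. TET2, the TET gene most often mutated in myeloid disease, had 39.0, 47.7, 39.5 and 42.8 CPM in the edit-3 libraries, 35.9, 39.3, 40.3 and 41.1 CPM in those of K/VP.5 and 44.2, 42.2, 42.4 and 50.6 CPM in those of K562. Every K/VP.5 library lay below every K562 library, and the log2 fold change, -0.20, did not pass (SE 0.087, adjusted p = 0.096). The 20 neighbours of TET2 on chromosome 4 had a median of -0.46 in that comparison, and 17 of them had the same sign. In edit-3 versus K562 their median was -0.43, again with 17 of the same sign as TET2. There TET2 itself stood at -0.09 and did not pass (adjusted p = 0.48). Whether TET2 follows its neighbours was not tested. TET3 had 135, 116, 158 and 151 CPM in the edit-3 libraries, 125, 121, 135 and 134 CPM in those of K/VP.5 and 121, 115, 109 and 164 CPM in those of K562. Replicate 4 of K562 stood above the other K562 libraries, and without it TET3 was higher in edit-3 than in K562 (log2 fold change 0.28, adjusted p = 0.030; 0.14 and 0.40 with all libraries).

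Per length, TET1 made up 49.0 ± 2.28% of the reads of the 3 TET genes in edit-3, 59.3 ± 2.68% in K/VP.5 and 57.2 ± 3.38% in K562 (SD, n = 4). TET3 made up 41.5 ± 3.29% in edit-3, 33.2 ± 2.03% in K/VP.5 and 33.8 ± 3.25% in K562, and TET2 the remaining 7.53% to 9.41%. The TET1 share of each edit-3 library was below that of each library of the other lines, while the TET3 shares of edit-3 and K562 overlapped.

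**Figure D3:**
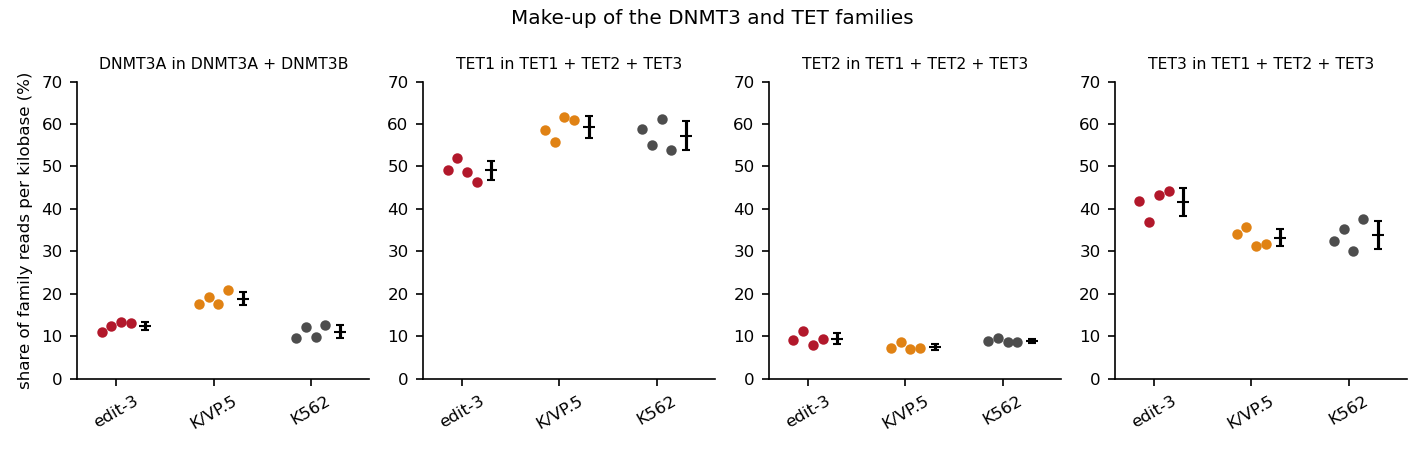
Share of single genes in the summed reads per kilobase of the DNMT3 pair and of the TET family, in percent, for each library (dots) with mean and SD. DNMT3A holds 12.4% in edit-3, 18.9% in K/VP.5 and 11.0% in K562, and TET1 holds 49.0% in edit-3 against 59.3% in K/VP.5 and 57.2% in K562.

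For both MBD genes every library of the sublines lay below every K562 library, and of their 4 differences from K562 that of MBD4 in edit-3 passed. MBD4, a glycosylase that removes thymine from G:T mismatches left by deaminated methylcytosine, had 42.5, 39.6, 39.6 and 40.3 CPM in the edit-3 libraries, 41.7, 40.4, 42.0 and 39.0 CPM in those of K/VP.5 and 49.2, 45.6, 46.1 and 43.3 CPM in those of K562. The highest subline library, at 42.5 CPM, was close to the lowest of K562, at 43.3 CPM. The log2 fold change was -0.19 in edit-3 versus K562 (SE 0.066, adjusted p = 0.038) and -0.18 in K/VP.5 versus K562 (SE 0.066, adjusted p = 0.051), so that the first passed and the second did not. Both lie at the threshold: the edit-3 call ended in 7 of 18 alternatives (highest adjusted p 0.16), among them those without edit-3 replicate 2, 3 or 4 and without K562 replicate 1 or 3. The K/VP.5 difference passed in 5 of 18, the replicate block among them (log2 fold change -0.18, adjusted p = 0.035). MBD4 shares 144 exonic bases, 4.29% of its exons, with IFT122 on the opposite strand, and without a stated strand setting their reads there cannot be told apart.

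MBD2, the methyl-CpG binder of the NuRD complex, had 33.8, 30.8, 28.6 and 32.7 CPM in the edit-3 libraries, 32.3, 32.9, 30.2 and 32.0 CPM in those of K/VP.5 and 34.5, 36.8, 35.4 and 35.3 CPM in those of K562. The highest subline library stood at 33.8 CPM and the lowest of K562 at 34.5 CPM. The log2 fold change was -0.17 in edit-3 versus K562 (SE 0.071, adjusted p = 0.069) and -0.16 in K/VP.5 versus K562 (SE 0.071, adjusted p = 0.11), and neither passed. Between edit-3 and K/VP.5 both MBD genes overlapped, with log2 fold changes of -0.02 for MBD2 and -0.01 for MBD4 (adjusted p = 0.89 and 0.94).

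Counted over the set, 1 of 10 genes rose and 0 fell in K/VP.5 versus K562, where 36.6% of all tested genes changed, 18.3% in each direction. These counts are from edgeR without pairing of the libraries. At an unadjusted p under 0.05, 3 were lower (TET2, MBD2 and MBD4), and DESeq2 called 2 genes in all, MBD4 besides DNMT3A. The shares of all tested genes at an unadjusted p under 0.05 or called by DESeq2 are not given here. Such counts, for this set and for the lists below, therefore cannot be read against a background. With the replicate block in edgeR, MBD4 also passed as lower (adjusted p = 0.035). In edit-3 versus K/VP.5, 0 rose and 2 fell by edgeR, where 23.6% of all genes changed, and in edit-3 versus K562, 0 rose and 2 fell, where 39.2% changed. In both, 0 were higher at an unadjusted p under 0.05 or by DESeq2. The libraries of K/VP.5 and K562 did not overlap for 4 of the 10 genes, against 37.4% of all genes tested. They did not overlap for 2 genes in edit-3 versus K/VP.5 (26% of all genes) and for 3 in edit-3 versus K562 (34%). The median log2 fold change of the set was -0.05 in K/VP.5 versus K562 and -0.01 in edit-3 versus K/VP.5, and that of all tested genes was 0.00 in both. None of the 10 changed by 2-fold, as 13.4% of all genes did in K/VP.5 versus K562, 8.32% in edit-3 versus K/VP.5 and 15% in edit-3 versus K562.

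**Figure D4:**
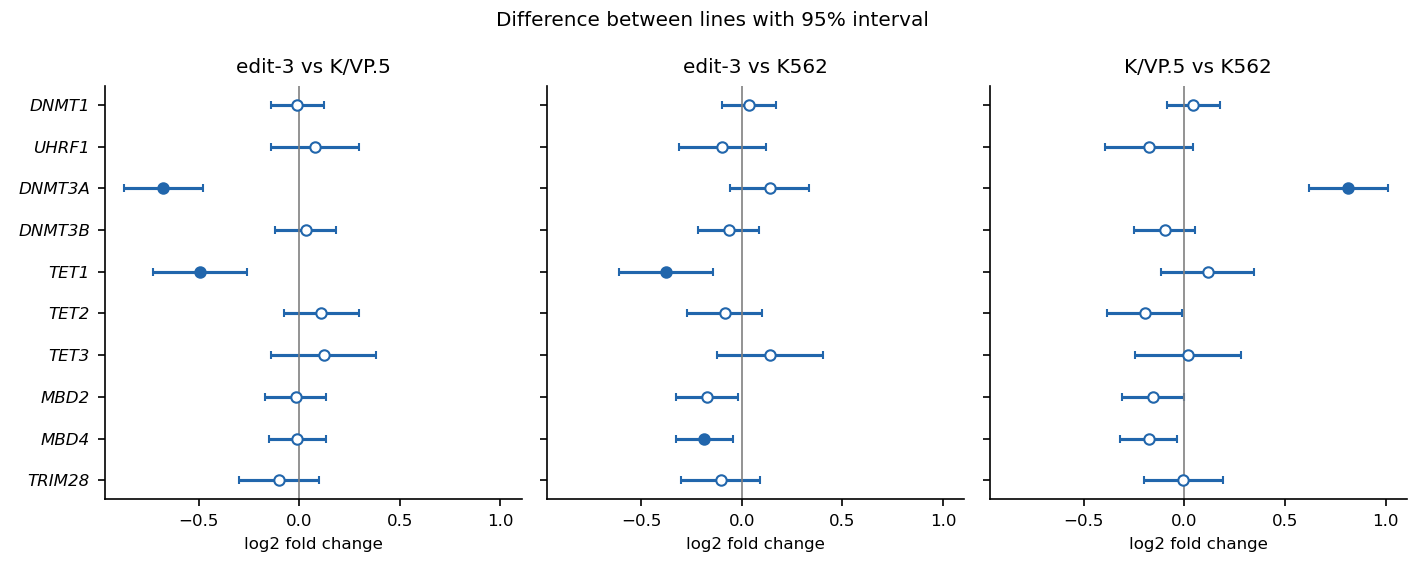
Log2 fold change of each gene with its 95% interval in the 3 comparisons; filled dots passed an adjusted p of 0.05. DNMT3A stands at -0.68 in edit-3 versus K/VP.5 and at 0.82 in K/VP.5 versus K562, TET1 at -0.49 and -0.38 in the comparisons of edit-3, and MBD4 at -0.19 in edit-3 versus K562.

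Larger changes were found in a list of other MBD proteins and methyl-CpG binders, of which 8 were tested. The list takes in MBD3, MBD5 and MBD6, which share the MBD fold but are not known to bind methylated CpGs. In K/VP.5 versus K562, 1 rose and 5 fell, in edit-3 versus K562 1 rose and 5 fell, and in edit-3 versus K/VP.5 1 rose and 1 fell. Their median log2 fold change was -0.39, -0.34 and -0.04 in these comparisons. The calls made up 75%, 75% and 25% of the 8, where 36.6%, 39.2% and 23.6% of all tested genes were called. MBD1, a reader that also has CXXC domains, averaged 26.9 CPM in edit-3, 26.5 CPM in K/VP.5 and 76.5 CPM in K562, with log2 fold changes of -1.51 and -1.53 against K562 (SE 0.092 each, adjusted p = 7.1e-09 each). Between edit-3 and K/VP.5 MBD1 did not pass, with a 95% interval of the log2 difference of -0.17 to 0.22. MBD6, an MBD protein of a deubiquitinase complex, averaged 25.7 CPM in edit-3, 39.0 CPM in K/VP.5 and 46.7 CPM in K562 (log2 fold change -0.60 in edit-3 versus K/VP.5, adjusted p = 5.6e-05, and -0.86 in edit-3 versus K562, adjusted p = 6.3e-07), and the rise of MBD5 in K/VP.5 versus K562 (0.34, adjusted p = 0.048) ended in 12 of 18 alternatives, 9 of them single libraries left out (highest adjusted p 0.165). ZBTB38, a zinc finger protein that binds methylated CpGs, averaged 73.5 CPM in edit-3, 6.56 CPM in K/VP.5 and 36.6 CPM in K562 (log2 fold change 3.48 in edit-3 versus K/VP.5, SE 0.14, adjusted p = 2.7e-10; -2.48 in K/VP.5 versus K562, SE 0.14, adjusted p = 3.4e-09; 1.01 in edit-3 versus K562, SE 0.13, adjusted p = 1.6e-05).

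Of 14 other writers and maintenance cofactors, 2 rose and 3 fell in K/VP.5 versus K562, 2 rose and 1 fell in edit-3 versus K/VP.5, and 1 rose and 4 fell in edit-3 versus K562 (medians 0.03, 0.01 and -0.09). That is 35.7%, 21.4% and 35.7% of the list, against 36.6%, 23.6% and 39.2% of all tested genes in these comparisons. CDCA7L, a MYC-binding protein, was among the rises in each; its log2 fold change of 0.66 in edit-3 versus K562 passed under every alternative, while those of 0.32 in K/VP.5 versus K562 and 0.34 in edit-3 versus K/VP.5 ended in 9 and 13 of 18 (highest adjusted p 0.12 and 0.14), most of them single libraries left out. NSD2, a histone H3 lysine 36 methyltransferase whose mark DNMT3A can bind, averaged 175 CPM in edit-3, 173 CPM in K/VP.5 and 338 CPM in K562 (log2 fold changes -0.95 and -0.97 against K562, adjusted p = 8.6e-09 and 8.9e-09). HELLS, a chromatin remodeller needed for methylation of repeats, averaged 57.4 CPM in edit-3, 55.0 CPM in K/VP.5 and 83.3 CPM in K562 (log2 fold changes -0.54 and -0.60 against K562, adjusted p = 0.00068 and 0.0003). USP7, a deubiquitinase that stabilises UHRF1 and DNMT1, averaged 224 CPM in edit-3, 172 CPM in K/VP.5 and 293 CPM in K562. Its log2 fold change was -0.77 in K/VP.5 versus K562 (adjusted p = 5.4e-05) and 0.38 in edit-3 versus K/VP.5 (adjusted p = 0.019), a call that ended (adjusted p up to 0.071) when edit-3 replicate 1 or K/VP.5 replicate 2 or 4 was left out. Without K/VP.5 replicate 2 the 3 calls of the list in edit-3 versus K/VP.5 became 1. KDM2B, a CXXC demethylase that keeps CpG islands free of methylation, averaged 81.7 CPM in edit-3, 108 CPM in K/VP.5 and 105 CPM in K562 (log2 fold change -0.40 in edit-3 versus K/VP.5, adjusted p = 0.0050, and -0.36 in edit-3 versus K562, adjusted p = 0.0060).

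**Figure D5:**
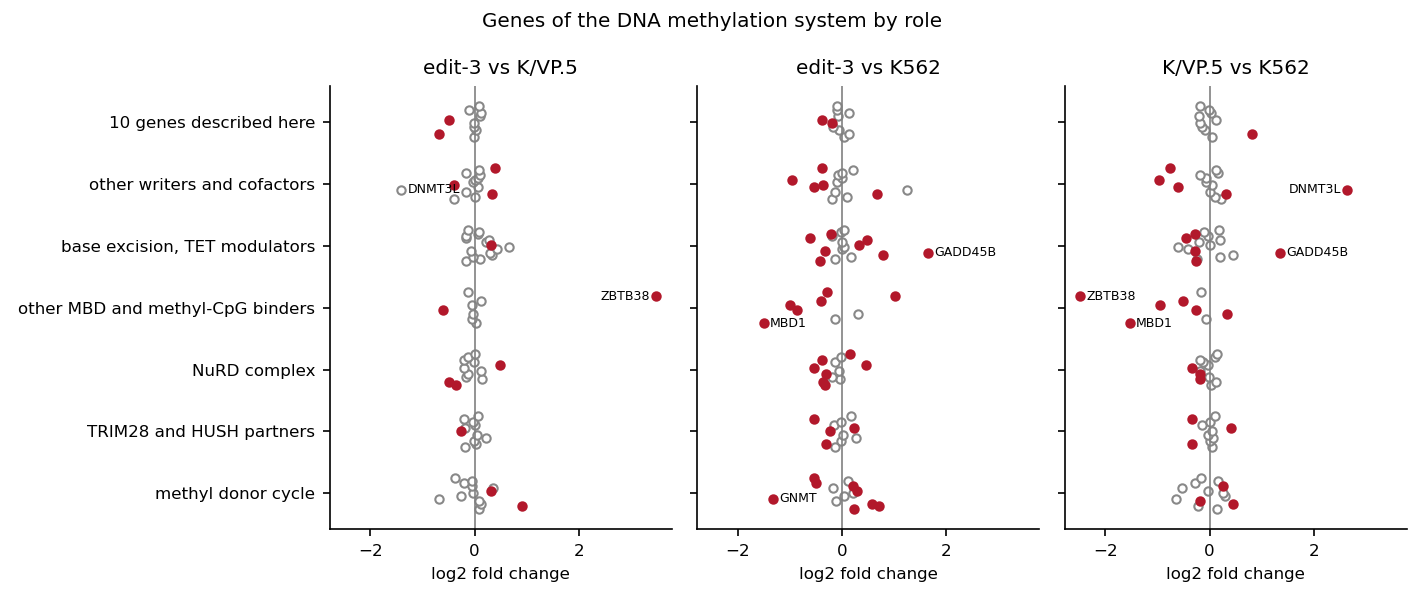
Log2 fold change of every tested gene by list (rows) and comparison (panels); filled dots passed an adjusted p of 0.05, and genes beyond 1.3 on the log2 scale are named. The 10 genes at the top stay between -0.68 and 0.82, while the other MBD and methyl-CpG binders reach -2.48 (ZBTB38, K/VP.5 versus K562) and 3.48 (ZBTB38, edit-3 versus K/VP.5).

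Of 12 NuRD genes, 0 rose and 3 fell in K/VP.5 versus K562 by edgeR (1 higher and 4 lower at an unadjusted p under 0.05, 4 called in all by DESeq2 and 5 with the replicate block), 1 rose and 2 fell in edit-3 versus K/VP.5, and 2 rose and 5 fell in edit-3 versus K562 (medians -0.08, -0.12 and -0.17). In the order given, 25%, 25% and 58.3% of the NuRD genes were called by edgeR, against 36.6%, 23.6% and 39.2% of all tested genes. In edit-3 versus K/VP.5, 2 NuRD genes were higher and 4 lower at an unadjusted p under 0.05, and 5 were called with the replicate block. The count in K/VP.5 versus K562 dropped to 1 without a filter and without K/VP.5 replicate 1, 3 or 4 or K562 replicate 2 or 4. Among these genes HDAC2, a histone deacetylase, fell by 0.34 on the log2 scale in K/VP.5 versus K562 (adjusted p = 0.0025) and by 0.53 in edit-3 versus K562 (adjusted p = 4.7e-05). In edit-3, MTA1 rose by 0.49 against K/VP.5 (adjusted p = 0.0004) and 0.46 against K562 (adjusted p = 0.00031), and the remodeller CHD3 fell by 0.49 against K/VP.5 (adjusted p = 0.00011) and 0.37 against K562 (adjusted p = 0.00059). Of 11 tested TRIM28 and HUSH partners, 1 rose and 2 fell in K/VP.5 versus K562, and 0 rose and 1 fell in edit-3 versus K/VP.5 (0 higher and 2 lower at an unadjusted p under 0.05, 2 in all by DESeq2). In edit-3 versus K562, 1 rose and 3 fell, and 7 were called without edit-3 replicate 1. In edit-3 versus K/VP.5, 2 were called without K/VP.5 replicate 2 or with the replicate block. By edgeR, 27.3%, 9.09% and 36.4% of these partners were called in K/VP.5 versus K562, edit-3 versus K/VP.5 and edit-3 versus K562. Of all tested genes, 36.6%, 23.6% and 39.2% were. MPHOSPH8, a HUSH subunit that binds methylated histone H3 lysine 9, rose by 0.41 in K/VP.5 (adjusted p = 0.00015), and CBX1, a heterochromatin protein, fell by 0.34 (adjusted p = 0.0016).

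Of 16 tested genes of base excision and TET modulation, 1 rose and 4 fell in K/VP.5 versus K562 (8 called with the replicate block), and 1 rose and 0 fell in edit-3 versus K/VP.5 by edgeR (1 higher and 1 lower at an unadjusted p under 0.05, 1 in all by DESeq2). In edit-3 versus K562, 4 rose and 4 fell. The count in edit-3 versus K/VP.5 was 0 without a filter and without K/VP.5 replicate 2 or 4, and 2 without edit-3 replicate 1 or 2. By edgeR, 31.25%, 6.25% and 50% of this list were called in K/VP.5 versus K562, edit-3 versus K/VP.5 and edit-3 versus K562. Of all tested genes, 36.6%, 23.6% and 39.2% were. GADD45B, a stress gene tied to demethylation, averaged 4.34 CPM in edit-3, 3.53 CPM in K/VP.5 and 1.39 CPM in K562 (log2 fold changes 1.64 and 1.35 against K562, adjusted p = 0.00068 and 0.0034), and the glycosylase SMUG1 fell by 0.28 in K/VP.5 versus K562 (adjusted p = 0.0039). Of 13 tested genes of the methyl donor cycle, 2 rose and 1 fell in K/VP.5 versus K562, and 2 rose and 0 fell in edit-3 versus K/VP.5 by edgeR (2 higher and 2 lower at an unadjusted p under 0.05, 2 in all by DESeq2). In edit-3 versus K562, 5 rose and 3 fell. The K/VP.5 versus K562 count was 5 without edit-3 replicate 2 and 7 in a fit of these lines alone, and that of edit-3 versus K/VP.5 was 1 without edit-3 replicate 1 or 4, any K/VP.5 replicate or K562 replicate 2. With all libraries, 23.1%, 15.4% and 61.5% of this list were called in the same order of comparisons, against the shares of all tested genes given above. AHCYL1, a relative of the hydrolase of S-adenosylhomocysteine, averaged 204 CPM in edit-3, 108 CPM in K/VP.5 and 126 CPM in K562 (log2 fold change 0.91 in edit-3 versus K/VP.5, adjusted p = 3.1e-05, and 0.70 in edit-3 versus K562, adjusted p = 0.00016), and MTR, methionine synthase, rose by 0.27 in K/VP.5 versus K562 (adjusted p = 0.0067).

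Germline genes that somatic cells keep silent by promoter methylation were set beside these. Of 24 listed, 14 were too low to be tested, and 8 of the 24 had 0 reads over all libraries of edit-3, 9 over those of K/VP.5 and 9 over those of K562. Of the 10 tested, 5 rose and 2 fell in K/VP.5 versus K562, 4 rose and 2 fell in edit-3 versus K/VP.5, and 5 rose and 3 fell in edit-3 versus K562. In this order, 70%, 60% and 80% of the 10 were called, against 36.6%, 23.6% and 39.2% of all tested genes. A low gene can pass the filter only through the line where it is high, which favours a call. How many of the 10 and of all tested genes did so is not given here. The shares of the list and of all genes therefore cannot be weighed against each other. With the stricter filter, 4 of these germline genes in all were called in K/VP.5 versus K562 and 5 in edit-3 versus K562. That filter, 1 CPM in at least 4 libraries, takes low genes out of the test, and a gene taken out cannot be called. How many of the 10 stayed in is not given here. MAGEC2, an X-linked cancer-testis gene, averaged 3.199 CPM in edit-3, 1.69 CPM in K/VP.5 and 0.301 CPM in K562, with log2 fold changes of 0.92 in edit-3 versus K/VP.5 (adjusted p = 0.0015) and 2.47 in K/VP.5 versus K562 (adjusted p = 7.2e-07). TEX15, which acts in transposon silencing in mouse testis, averaged 50.1 CPM in edit-3, 26.9 CPM in K/VP.5 and 17.8 CPM in K562, and MAGEB2, another X-linked cancer-testis gene, averaged 8.68 CPM in edit-3, 14.7 CPM in K/VP.5 and 18.6 CPM in K562. PRAME, a cancer-testis antigen, was abundant in all lines, at 1009 CPM in edit-3, 1051 CPM in K/VP.5 and 1324 CPM in K562 (log2 fold change -0.33 in K/VP.5 versus K562, adjusted p = 0.0014).

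Each gene was also matched to the tested gene with the most similar pattern, by Pearson's r of log2 CPM over the 12 libraries among 14095 genes with a mean of at least 1 CPM, as a description in which the points share lines and libraries. DNMT3A was most like DEF8 (r = 0.98), MBD4 most like HELLS (0.98), UHRF1 most like LMNB2 (0.97), TRIM28 most like GEMIN4 (0.97) and DNMT3B most like PRKD2 (0.95). TET2 was most like CEP57 (0.95), TET1 most like VCPIP1 (0.92), TET3 most like BTG2 (0.91), MBD2 most like AL365330.1 (0.91) and DNMT1 most like MED25 (0.85).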

How the data were processed

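RNA sequencing counts per gene were used as the authors deposited them: raw read counts of 58395 Ensembl genes in 12 libraries. Subread 1.5.1, featureCounts, HISAT2 2.1.0 and the build GRCh38 are named, per the submitters' processing notes. For the annotation release, the strand setting and reads with several positions, nothing is given in these sources. Where overlapping or near-identical genes share reads, their counts are uncertain.

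Libraries were grouped by the source name in the labels, since the description field of some libraries names another line. Genes were filtered with edgeR's filterByExpr, scaled by TMM and tested with the robust quasi-likelihood test (edgeR 4.0.16, R 4.3.3) over all 12 libraries, with Benjamini-Hochberg adjustment over 18286 genes and a call at an adjusted p under 0.05. SE is the log2 fold change over the root of F, and 95% intervals use the fit's degrees of freedom. CPM values are TMM-scaled, and RPKM values also divide by the union of exons in GENCODE 29. On simulated counts for K/VP.5 versus K562, the test recovered 95 of 100 genes changed by 1 on the log2 scale and 37 of 100 changed by 0.5. Alternatives used DESeq2 1.42.0, other filters, scaling and samples. The 12 libraries differ by more than counting error (chi-square per degree of freedom at least 6.68 within a line), so none was counted as a duplicate.

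The members and gene lists were chosen with earlier results of these data known. Beside the members, the text names at most the 2 called genes with the highest and the 2 with the lowest change per list and comparison, with a mean of at least 1 CPM in either line; their values in other comparisons are given for some of them. Genes named after their values were seen are marked so, and 1 gene that the rule names is not reported here. Same-numbered libraries of K/VP.5 and K562 deviated together (correlations of deviations from the line mean 0.14 to 0.51), and the numbers, from the titles, were taken to pair these lines. In this comparison 7 of 8 libraries correlated best with their own number. The labels state no design, so the main test leaves the pairing out and its calls are unpaired. A fit with the replicate number as a block (the replicate block) was run as an alternative.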

Additional observations from a re-analysis of the deposited data

Results flagged for a closer look

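DNMT3B had 198 CPM in edit-3 replicate 2, well below the other edit-3 libraries (222 to 226 CPM). Of 30 gene and line groups tested with Dixon's test for a sample far from the others, this was the 1 that passed, and chance gives about 1 in 20. DNMT1, TET3, TRIM28 and UHRF1 were also lowest in that library within edit-3, without passing, so that 5 of the 10 genes had their lowest edit-3 value there. TET2 had its highest edit-3 value there (47.7 CPM), and the share of all tested genes lowest in that library was not counted. Leaving it out changed no call of DNMT3B.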

How the results depend on the processing

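The calls of DNMT3A and TET1 held under all 18 alternatives: the DNMT3A log2 fold change ran from 0.77 to 0.88 in K/VP.5 versus K562 (highest adjusted p 4.6e-05) and from -0.73 to -0.63 in edit-3 versus K/VP.5 (0.00037), and that of TET1 from -0.59 to -0.42 in edit-3 versus K/VP.5 (0.016) and from -0.47 to -0.33 in edit-3 versus K562 (0.031). Of the 10 genes, 1 was lower in K/VP.5 than in K562 (MBD4; 0 in the edgeR test of all libraries) with the DESeq2 Wald test, with a stricter filter of 1 CPM in 4 libraries and with the replicate block, and 0 to 1 with single libraries left out. In edit-3 versus K562, 1 rather than 2 was lower without a filter and with only the 2 lines in the fit, 1 to 3 were lower with single libraries left out, and 0 to 1 were higher (TET3, without K562 replicate 4). MBD2 was the added one, without edit-3 replicate 1 (adjusted p = 0.040). For these calls at the threshold the cause was not tested.

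Same-numbered libraries of edit-3 did not all deviate with those of K/VP.5 (correlations -0.07 to 0.36) or K562 (-0.11 to 0.47), and 4 of 8 and 4 of 8 libraries correlated best with their own number. Fitted with the replicate block, K/VP.5 versus K562 gave 7681 called genes and 6688 when fitted without, edit-3 versus K/VP.5 gave 5494 and 4309, and edit-3 versus K562 gave 8121 and 7166; among the 10 genes it changed the call of MBD4 in K/VP.5 versus K562 and no other. Over all alternatives the number of genes called moved by less than 1.5 times.

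With the longest coding transcript as gene length, a choice made after seeing the data, DNMT3A made up 14.4% of the DNMT3 pair in edit-3, 21.6% in K/VP.5 and 12.8% in K562. TET1 then made up 45.0%, 55.3% and 52.9% of the TET genes in edit-3, K/VP.5 and K562, and TET2 14.0%, 11.4% and 13.4%. The order of the lines held. Of the recomputed counts per other gene list, 401 stayed within 1.5 times of the value given and 31 did not. At 25.3 M to 37.1 M reads, counting error is small for the 10 genes, and 4 libraries per line limit the precision.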
